A study of Mus musculus with 6 samples.

Results

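Adipokines are signalling proteins that fat cells release into the blood, and adipocyte identity genes encode the transcription factors and specialised proteins that set a fat cell apart from its precursors. 10 such genes, Cfd, Adipoq, Retn, Lep, Hp, Adig, Pparg, Cebpa, Car3 and Trarg1, were followed among the 39059 genes counted in RNA from mouse muscle stem cells. All 10 were found by symbol through their Ensembl identifiers. The genes were chosen with their levels in these same libraries known, so the difference between genotypes in each of them is given below as a description, without a test. The cells were satellite cells, which lie beneath the sheath of muscle fibres and repair them, isolated by FACS from hind-limb muscle of C57BL/6J animals aged 19 days. 3 libraries were labelled Lmna HOM, from mice with the genotype Lmna Δ8-11 -/-, in which exons 8 to 11 of the gene for lamins A and C are deleted, and 3 were labelled Lmna WT, with the genotype Lmna Δ8-11 +/+. No treatment, transgene or Cre driver is named for either group. 3 mice are given for each genotype, and no label links a library to an animal, so p-values measure the spread between these libraries, which may in part be technical.

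Reads assigned to genes ran from 6613636 to 9552751 per library. Lmna was at 374 to 449 CPM (read counts brought to a common library size, with gene totals scaled by TMM factors) in the 3 HOM libraries and at 840 to 1054 CPM in the 3 WT libraries, a count over the whole gene that checks the labels only in part, since undeleted exons are included. HOM replicate 2, WT replicate 2 and WT replicate 3 carried 3074 to 4831 reads of 4 Y-linked genes, and the other libraries at most 3. HOM replicate 2 and WT replicate 2 held 13027 and 13900 CPM of the noncoding RNA Gm42418, against 914 to 1797 CPM elsewhere. HOM replicate 3 stood apart from the other HOM libraries in the genes described here, so values are given library by library, in the order of replicates 1, 2 and 3.

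Fat cells form when the nuclear receptor PPARγ, encoded by Pparg, and the leucine zipper factor C/EBPα, encoded by Cebpa, activate each other and then switch on genes for lipid storage and for secreted products. Resident fibro-adipogenic progenitors are the usual source of fat cells within muscle, and satellite cells are committed to the muscle lineage. Several genes of the group are not restricted to fat: Car3 is abundant in slow muscle fibres, Hp in liver and in neutrophil granules, and Cebpa in liver and myeloid cells.

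The promoters of Cfd, Adipoq, Retn and Adig, which were raised together in the HOM libraries, and of Lep, which was not detected there, are shown as the 250 bases upstream of the RefSeq start, plus strand, build GRCm38.p6. Capitals mark matches on either strand to the C/EBP core TTNCNNAA, the CCAAT box CCAAT, the TATA box TATAAA or the half-site of PPAR and RXR receptors, AGGTCA, and a window without capitals holds none of these letters.
Cfd, chr10:79890603-79890852: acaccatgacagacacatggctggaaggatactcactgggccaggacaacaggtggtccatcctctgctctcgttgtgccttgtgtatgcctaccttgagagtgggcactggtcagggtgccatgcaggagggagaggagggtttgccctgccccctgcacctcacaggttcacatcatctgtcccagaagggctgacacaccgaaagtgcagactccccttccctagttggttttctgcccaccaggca
Adipoq, chr16:23146286-23146535: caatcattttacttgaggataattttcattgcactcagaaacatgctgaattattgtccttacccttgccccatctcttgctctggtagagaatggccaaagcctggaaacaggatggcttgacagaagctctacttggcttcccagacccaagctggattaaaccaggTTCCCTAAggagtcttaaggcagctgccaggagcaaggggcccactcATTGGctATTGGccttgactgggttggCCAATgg
Retn, chr8:3655520-3655769: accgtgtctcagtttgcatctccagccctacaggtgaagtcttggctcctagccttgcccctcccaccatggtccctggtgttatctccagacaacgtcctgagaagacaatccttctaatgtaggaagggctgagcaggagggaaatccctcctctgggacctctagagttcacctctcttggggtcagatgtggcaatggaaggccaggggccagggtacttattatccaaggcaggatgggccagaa
Adig, chr2:158502362-158502611: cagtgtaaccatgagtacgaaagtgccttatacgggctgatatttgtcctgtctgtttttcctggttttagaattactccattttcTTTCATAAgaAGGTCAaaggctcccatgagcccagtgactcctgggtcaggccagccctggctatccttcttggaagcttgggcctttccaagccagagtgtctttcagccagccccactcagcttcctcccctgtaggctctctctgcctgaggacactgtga
Lep, chr6:29059971-29060220: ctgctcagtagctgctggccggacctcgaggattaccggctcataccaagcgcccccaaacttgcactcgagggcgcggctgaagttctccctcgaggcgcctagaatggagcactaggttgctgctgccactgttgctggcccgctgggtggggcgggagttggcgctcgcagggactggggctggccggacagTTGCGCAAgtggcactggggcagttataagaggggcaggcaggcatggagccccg

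RefSeq windows were matched for 7 of the 10 genes, 9 windows in all because Pparg has 3 starts. The C/EBP core occurred in the windows of Adipoq, Adig and Lep and in the most downstream of the Pparg windows, and in 36.9% of 32851 windows of all genes. In Lep the match was the full palindrome TTGCGCAA, 55 to 48 bases before the start, a sequence found in 0.164% of all windows. Adipoq held 3 CCAAT boxes within 34 bases of its start, and 33.9% of all windows held at least 1. AGGTCA was present in Adig and in 2 Pparg windows, against 14.02% of all windows, and its direct repeat with 1 base between the copies was in no window of these genes and in 0.0335% of all windows. The TATA box was seen in Cebpa and in 1 Pparg window, against 12.4% of all windows. These matches describe letters in a short window and do not show binding.

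Secreted products of fat cells had at most 15 reads in any WT library and were higher in each HOM library, with the exception of leptin. Cfd (ENSMUSG00000061780, chromosome 10, positions 79890853 to 79892655, plus strand, GRCm38) encodes adipsin, or complement factor D, a serine protease made mainly by fat cells. It had 354, 342 and 2136 reads in the HOM libraries and 1, 0 and 1 reads in the WT libraries. In CPM this was 49.4, 36.1 and 279 against 0.115, 0 and 0.127. Pooled over each group and scaled by library totals, HOM exceeded WT by a ratio of 1333, with an exact 95% counting interval from 369 to 11016 that covers counting error only. The lowest HOM library was 286 times the highest WT library, and HOM replicate 3 stood 5.65 and 7.71 times above HOM replicates 1 and 2.

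Adipoq (ENSMUSG00000022878, chromosome 16, positions 23146536 to 23158028, plus strand) encodes adiponectin, a hormone that raises insulin sensitivity. It was counted with 65, 61 and 284 reads in HOM and with 2, 2 and 4 reads in WT. The corresponding levels were 9.06, 6.45 and 37.1 CPM, a mean of 17.5 ± 17.0 (SD, n = 3), against 0.231, 0.317 and 0.506 CPM, a mean of 0.351 ± 0.141. The groups did not overlap, and the fitted log2 fold change, HOM minus WT, was 5.58 (SE 0.85), and 4.40 (SE 0.42) without HOM replicate 3. Retn (ENSMUSG00000012705, chromosome 8, positions 3655770 to 3660110, plus strand) encodes resistin, which in mice is a product of fat cells. Its reads numbered 12, 12 and 62 in HOM and 0, 0 and 1 in WT, or 1.67, 1.27 and 8.09 CPM against 0, 0 and 0.127 CPM. The pooled ratio was 81.0, with a counting interval from 14.2 to 3235. Retn fell short of the filter on low counts of the main fit, so no fitted fold change is given.

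Lep (ENSMUSG00000059201, chromosome 6, positions 29060220 to 29073877, plus strand), the gene for the satiety hormone leptin, which fat cells release in proportion to their fat stores, was not detected in HOM. Its reads numbered 0, 0 and 0 in HOM and 0, 1 and 0 in WT. A count of 3 reads over a group would be 0.123 CPM in HOM and 0.131 CPM in WT, so leptin RNA was not detectable at this depth and no fold is given. At its annotated exon length of 3354 bases Lep was the longest of the 10 transcripts and so offered the most sequence to be counted.

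Hp (ENSMUSG00000031722, chromosome 8, positions 109575128 to 109579172, minus strand) encodes haptoglobin, a binder of free haemoglobin that fat cells, liver and neutrophils produce. It had 774, 149 and 2210 reads in HOM and 9, 7 and 15 in WT. The levels were 108, 15.7 and 288 CPM, a mean of 137 ± 139 (SD, n = 3), against 1.04, 1.11 and 1.90 CPM, a mean of 1.35 ± 0.478. The groups did not overlap, and the log2 fold change was 6.64 (SE 1.03), and 5.49 (SE 0.75) without HOM replicate 3. HOM replicate 2 was lowest, with HOM replicate 3 standing 18.3 times above it. HOM replicate 2 was also the lowest HOM library for the others of the group with reads in HOM, except Car3. It was the HOM library with Y-linked reads and also the one high in Gm42418, and these traits cannot be told apart within HOM. With a term in the fit for libraries that carry Y-linked reads, the log2 fold change of Hp was 5.59 (SE 0.78). In that fit Adipoq was at 5.07 (SE 0.76), Pparg at 1.36 (SE 0.23), Cebpa at 0.35 (SE 0.23) and Car3 at 2.65 (SE 0.75). Without the 2 libraries high in Gm42418 the log2 fold change of Hp was 7.08 (SE 0.48).

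The transcription factors differed less, and both were already present in WT. Pparg (ENSMUSG00000000440, chromosome 6, positions 115360951 to 115490399, plus strand) had 152, 107 and 223 reads in HOM and 73, 28 and 46 in WT. Its levels were 21.2, 11.3 and 29.1 CPM, a mean of 20.5 ± 8.91 (SD, n = 3), against 8.42, 4.44 and 5.82 CPM, a mean of 6.23 ± 2.02. Each HOM library lay above each WT library, the nearest pair by a factor of 1.34, and the log2 fold change was 1.69 (SE 0.34). Counts are per gene, so the reads do not separate the widely expressed first isoform from the second isoform, which is typical of fat cells. Cebpa (ENSMUSG00000034957, chromosome 7, positions 35119293 to 35121928, plus strand) had 187, 234 and 346 reads in HOM and 197, 155 and 182 in WT. At 26.1, 24.7 and 45.2 CPM against 22.7, 24.6 and 23.04 CPM, HOM replicates 1 and 2 were close to the WT libraries and HOM replicate 3 was above them. The log2 fold change was 0.45 (SE 0.22), and 0.12 (SE 0.15) without HOM replicate 3. 51 bases of the Cebpa exons overlap Gm45091 on the opposite strand, and whether reads were counted by strand is not stated in the labels.

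Of the 3 genes for proteins that act within fat cells, Adig and Trarg1 separated the genotypes and Car3 did not. Adig (ENSMUSG00000044405, chromosome 2, positions 158502612 to 158508198, plus strand) encodes adipogenin, a small membrane protein that increases during fat cell formation. It had 24, 23 and 68 reads in HOM and 0 reads in each WT library. That is 3.35, 2.43 and 8.87 CPM against 0, at least 36.1-fold higher when the WT group is set to 3 reads. Trarg1 (ENSMUSG00000046275, chromosome 11, positions 76679808 to 76698664, plus strand) encodes a regulator of the insulin-responsive glucose transporter GLUT4. Its reads numbered 144, 161 and 257 in HOM and 83, 44 and 71 in WT. In CPM the values were 20.1, 17.02 and 33.5, a mean of 23.5 ± 8.79 (SD, n = 3), against 9.57, 6.97 and 8.99, a mean of 8.51 ± 1.36, with no overlap and a log2 fold change of 1.45 (SE 0.26).

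Car3 (ENSMUSG00000027559, chromosome 3, positions 14863512 to 14872523, plus strand) encodes carbonic anhydrase III, a cytosolic enzyme of fat cells and slow muscle fibres. It was counted with 11, 118 and 175 reads in HOM and with 14, 18 and 14 in WT. The levels were 1.53, 12.5 and 22.8 CPM against 1.61, 2.85 and 1.77 CPM. HOM replicate 1 lay below all 3 WT libraries, and HOM replicates 2 and 3 lay above them. The log2 fold change was 2.59 (SE 0.72), 3.11 (SE 0.34) without HOM replicate 1 and 1.81 (SE 0.66) without HOM replicate 3. Myh7, the myosin of slow fibres, was at 0.279, 2.01 and 2.48 CPM in HOM and 1.38, 0.475 and 0.506 CPM in WT. Myh7 rested on 2 to 19 reads per library. Tnnt1, another slow-fibre gene, was at 2.79, 6.66 and 3.78 CPM in HOM, also lowest in replicate 1, and 13.4, 9.03 and 8.61 CPM in WT. Mb was at 0.697, 1.59 and 1.57 CPM in HOM and 1.73, 1.43 and 0.506 CPM in WT. Tnnc1, Myl2 and Myl3 were likewise lowest in HOM replicate 1 among the HOM libraries, on 1, 0 and 0 reads there. Tnni1 was at 4.18, 2.96 and 3.13 CPM against 5.08, 4.91 and 5.70 CPM, highest in HOM replicate 1 among the HOM libraries. The part of slow-fibre RNA in the Car3 values was not tested.

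**Figure D1:**
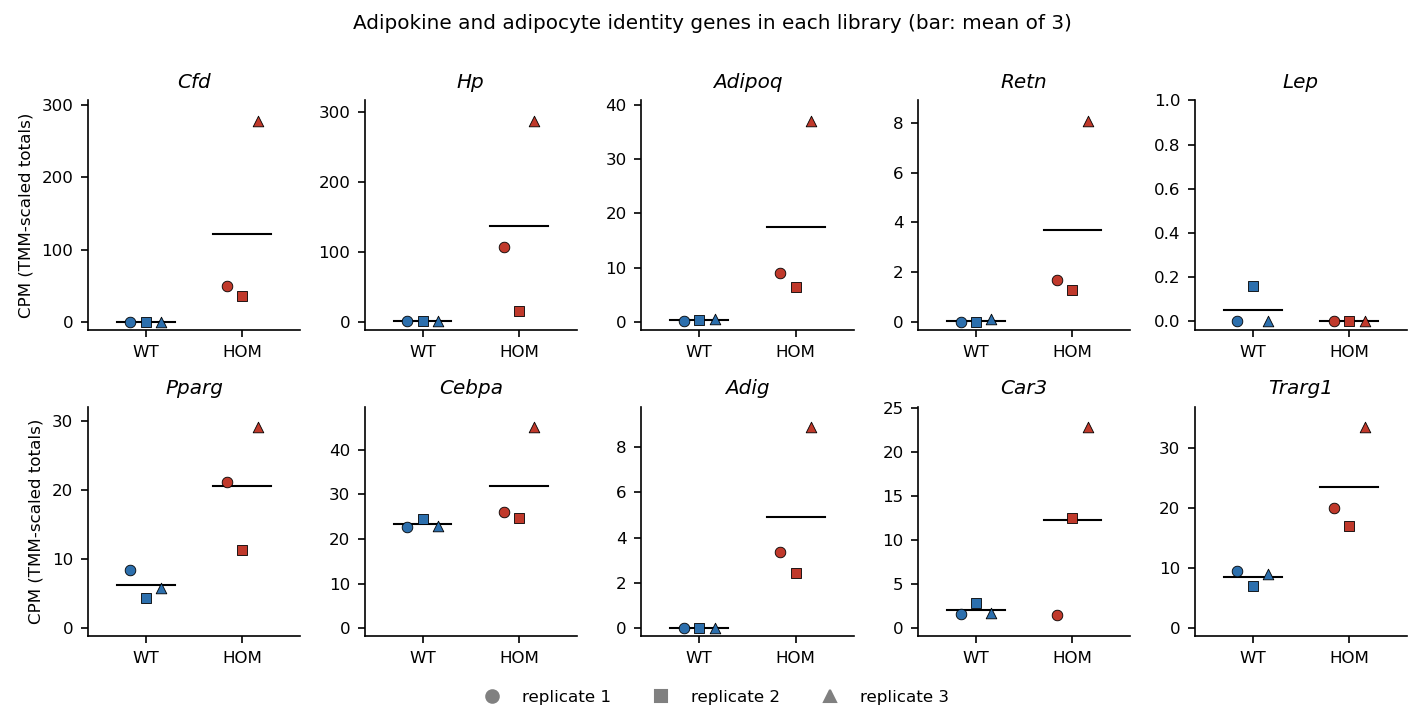
Level of each of the 10 genes in CPM on TMM-scaled totals (linear axes, each with its own range) in the 3 WT (blue) and 3 HOM (red) libraries, with the mean as a bar. HOM replicate 3 (triangle) was the highest library for the 9 genes with reads in HOM, and HOM replicate 1 was at the WT level for Car3 (1.53 CPM).

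Every HOM library lay above every WT library for 8 of the 10 genes, the exceptions being Car3 and Lep. Among the 8 that passed the filter on low counts this held for 7, and among all 14099 genes tested for 20.2%. Since the genes were chosen on this contrast, the 2 shares are not to be compared. The group summed to 240, 128 and 752 CPM in HOM and to 43.7, 40.4 and 42.3 CPM in WT. Cebpa made up 52.0 to 60.8% of that sum in WT and 6.01 to 19.4% in HOM, where Cfd made up 20.5 to 37.1% and Hp 12.3 to 44.9%.

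Levels were also set on a scale per kilobase of exon, so that genes could be ordered. In WT the order of mean levels in CPM per kilobase was Cebpa at 8.89 ± 0.373 (SD, n = 3), Trarg1 at 2.58 ± 0.413, Pparg at 2.11 ± 0.685, Hp at 0.840 ± 0.297, Car3 at 0.726 ± 0.235 and Adipoq at 0.254 ± 0.102, followed by Cfd, Retn and Lep with 2, 1 and 1 reads and Adig with 0. Neighbours from Trarg1 to Pparg and from Hp to Car3 were closer than their spread. In HOM the order in each library began with Cfd and Hp, Hp leading in replicate 1 with 67.2 against 53.5 CPM per kilobase and Cfd in replicates 2 and 3 with 39.2 against 9.81 and 302 against 180. Adipoq came next in HOM replicate 3, at 26.8, and below Cebpa in HOM replicates 1 and 2, at 6.56 and 4.67 against 9.89 and 9.38. Trarg1, Pparg and Adig lay at 3.001 to 11.0 CPM per kilobase in every HOM library, with means that differed by less than the SD of each, Retn lay at 0.803 to 5.12, Car3 at 0.535 to 7.97, and Lep was at 0.

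The rise in HOM replicate 3 was not equal across the group. Relative to HOM replicate 1 it was 5.65-fold for Cfd, 4.84-fold for Retn, 4.09-fold for Adipoq, 2.67-fold for Hp, 2.65-fold for Adig, 1.73-fold for Cebpa, 1.67-fold for Trarg1, 1.37-fold for Pparg and 14.9-fold for Car3. Counted per Adipoq read, Cfd stood at 5.45, 5.61 and 7.52 reads and Retn at 0.185, 0.197 and 0.218 reads in HOM replicates 1, 2 and 3, so their proportions varied by factors of 1.38 and 1.18 while Adipoq itself varied 5.75-fold in CPM. Adig kept to a range of 1.57-fold. 7 other genes of fat cells, chosen for this comparison after their values were seen, varied by unequal factors: Cidec, a coat protein of lipid droplets, varied 1.19-fold, Agt 1.70-fold, Pck1 2.17-fold, Cdo1 2.25-fold, Acvr1c 3.93-fold, Plin1 9.59-fold on 1 to 9 reads, and Adrb3 10.9-fold. Hp varied 4.87-fold, from 2.44 reads per Adipoq read in HOM replicate 2 (95% interval 1.80 to 3.35) to 11.9 in HOM replicate 1 (9.24 to 15.6). Pparg, Trarg1 and Cebpa varied 2.98-fold, 2.92-fold and 3.15-fold, and each was lowest per Adipoq read in HOM replicate 3. Car3 varied 11.4-fold.

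**Figure D2:**
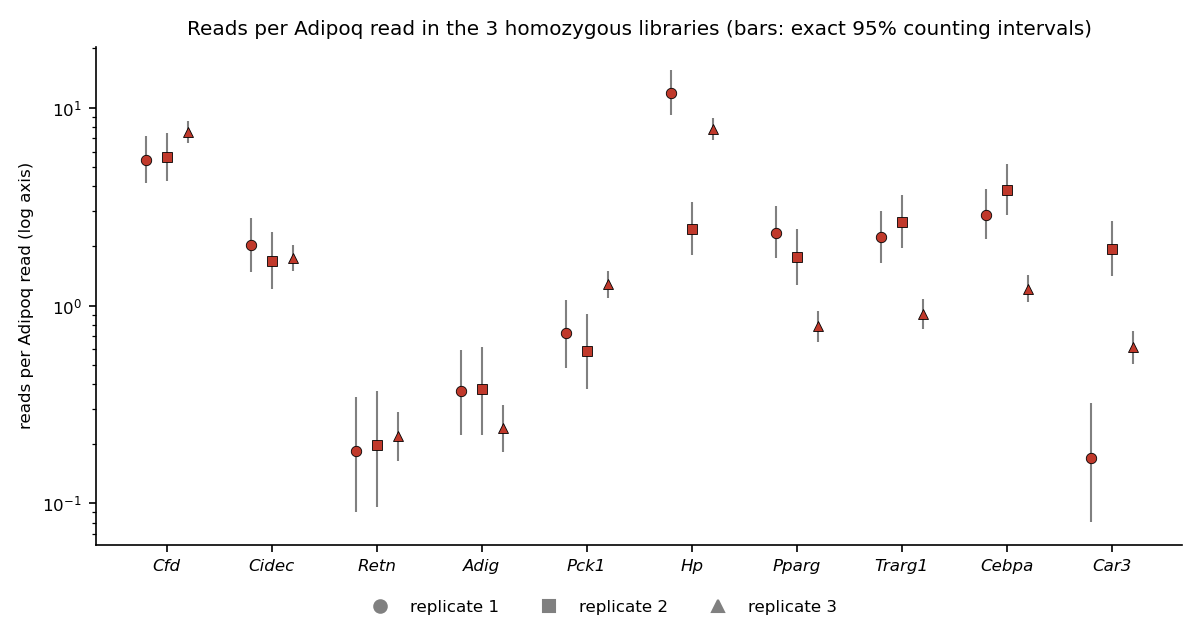
Reads of 8 of the genes, and of Cidec and Pck1, per read of Adipoq in the 3 HOM libraries (log axis, bars are exact 95% counting intervals). Agt, Cdo1, Acvr1c, Plin1 and Adrb3, which varied from 1.70-fold (Agt) to 10.9-fold (Adrb3), are not plotted. Cfd, Cidec and Retn sit at nearly the same proportion in all 3 libraries, while Hp ranges from 2.44 to 11.9 and Car3 from 0.169 to 1.93.

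The 3 genes of the group with the most reads, Hp, Cfd and Cebpa, were compared with 14641 other genes by the shape of their profile over the 6 libraries, as the root mean square difference of centred log2(CPM + 0.5) values. For Hp the nearest were Cidec (0.63), Acvr1c (0.82), a receptor of the activin family, and Apoc1 (0.83), an apolipoprotein. For Cfd they were Cidec (0.85), Pck1 (1.51), the enzyme of glyceroneogenesis, and Cyp2e1 (1.52), a cytochrome P450. Cidec was at 18.3, 10.9 and 64.5 CPM in HOM, with 0, 0 and 1 reads in WT. For Cebpa the nearest were Gstz1, an enzyme of tyrosine breakdown, Gm28523 and 5033417F24Rik (0.08 to 0.09). The measure is a description over 6 libraries.

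The wider adipocyte programme was read from 8 lists of 152 other genes, of which 127 could be tested with edgeR's quasi-likelihood test. 28 were higher and 14 lower in HOM at an adjusted p under 0.05 (Benjamini-Hochberg over all genes tested). Of all 14099 genes tested, 9.67% were called higher and 11.5% lower. The lists were chosen with earlier results of these data known, so these shares are not to be compared. The same holds for each list below. The lists' median log2 fold change was 0.09, against -0.0038 over all genes tested. The number of higher genes was 17 without WT replicate 1, and that of lower genes was 24 without HOM replicate 2, 9 without HOM replicate 3 and 8 without HOM replicate 1 or WT replicate 1. Of the 28 higher genes, 17 were highest in HOM replicate 3 and 10 in HOM replicate 1, and of all 1363 genes called higher, 475 and 699 were.

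**Figure D3:**
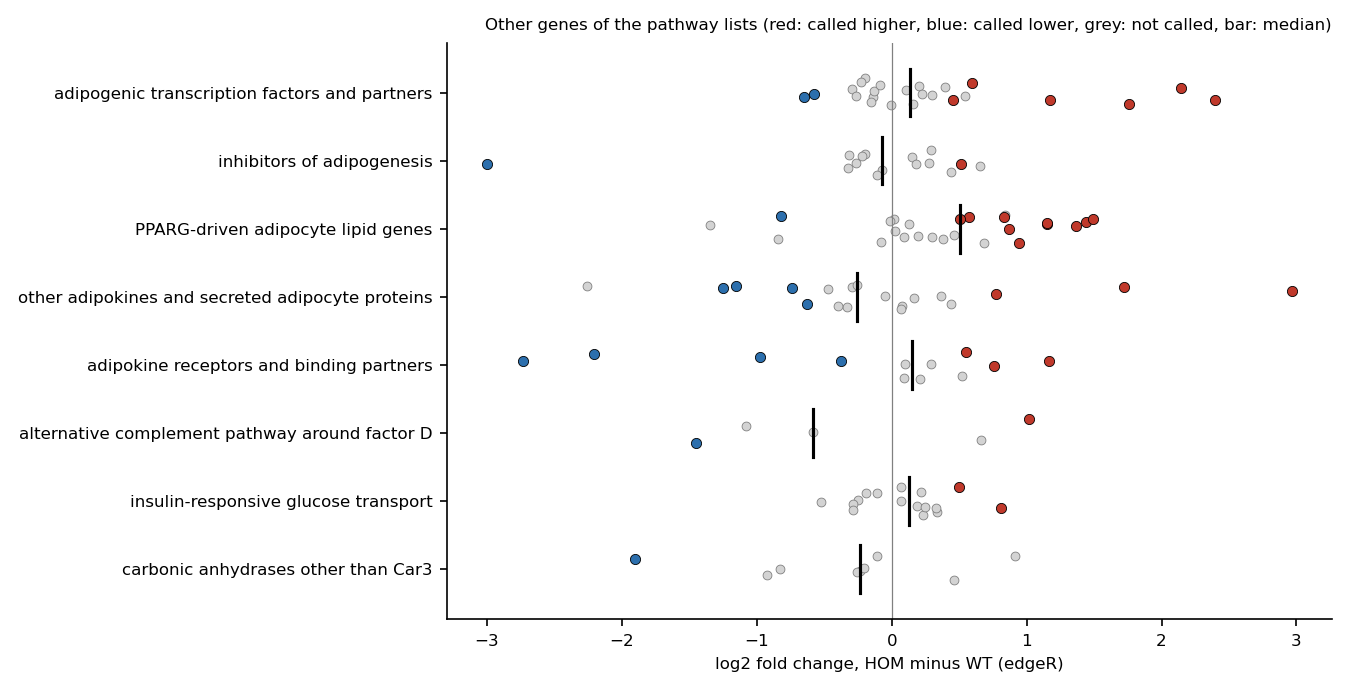
Log2 fold change, HOM minus WT, of the tested genes of the 8 pathway lists, 1 point a gene, red where called higher, blue where called lower and grey where not called, with the median as a bar. Cidec and Pck1, with 1 and 3 reads in WT, are left out of the points. The red points are densest among the adipocyte lipid genes, where 12 of 27 were called higher.

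Among 24 adipogenic transcription factors and partners, 6 rose (Klf15, Zbtb16, Nr1h3, Srebf1, Cebpd and Ebf1) and 2 fell (Nr3c1, the glucocorticoid receptor, and Ncoa1, a coactivator), with a median log2 fold change of 0.13. Klf15, a Krüppel-like factor that acts with C/EBP factors in fat cell formation, was at 105, 74.8 and 94.0 CPM in HOM and at 18.7, 16.2 and 17.0 CPM in WT, which the fit put at 2.40 on the log2 scale (SE 0.15, adjusted p = 0.00021). Zbtb16, a zinc finger factor, was at 159 ± 18.7 against 46.9 ± 7.57 CPM (1.76, SE 0.15, adjusted p = 0.000325). Srebf1, the regulator of fatty acid synthesis genes, was higher by 1.17 on the log2 scale (SE 0.16, adjusted p = 0.0018). Cebpb and Rxra, the C/EBP factor that acts before Cebpa and the receptor partner of PPARγ, were not called, at -0.29 (SE 0.23) and 0.40 (SE 0.13). The number of higher genes was 4 to 6 and of lower genes 0 to 3 over the fits that left out 1 library, with 0 lower without HOM replicate 3, 1 lower without HOM replicate 1, WT replicate 1 or WT replicate 3, and 3 lower without HOM replicate 2.

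Of 15 tested inhibitors of adipogenesis, Dlk1 fell and Ddit3 rose. Dlk1, or preadipocyte factor 1, which holds precursors back from becoming fat cells, was at 1.53, 2.43 and 2.22 CPM in HOM and at 19.6, 17.6 and 13.04 CPM in WT (log2 fold change -3.00, SE 0.25, adjusted p = 0.000325). Ddit3, the stress-induced factor CHOP, rose by 0.51 on the log2 scale (SE 0.16, adjusted p = 0.048), and was not called without HOM replicate 1 (adjusted p = 0.156), HOM replicate 3 (0.125), WT replicate 1 (0.179) or WT replicate 2 (0.109), nor with a term for libraries that carry Y-linked reads (0.114). Its exons overlap those of Mars and of a second gene model of the same name, so its count is uncertain.

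Of 27 tested lipid genes that PPARγ is known to drive in fat cells, 12 rose and 1, Mgll, fell, with a median log2 fold change of 0.51. Cidec had 728 reads in HOM and 1 in WT, a pooled ratio of 686 (95% counting interval 123 to 27114). Pck1 had 47, 36 and 364 reads in HOM and 0, 2 and 1 in WT, a pooled ratio of 140 (47.7 to 683). Plin4, a lipid droplet coat protein, was at 311, 276 and 398 CPM against 127, 116 and 119 CPM (1.44 on the log2 scale, SE 0.15, adjusted p = 0.00061). Pnpla2, the first lipase of fat breakdown, was at 186 ± 30.2 against 72.1 ± 4.07 CPM (1.36, SE 0.14, adjusted p = 0.00058). Plin1, the main droplet coat protein of fat cells, had 1, 9 and 7 reads in HOM and 1, 1 and 2 in WT, and was too low to test. Lpl and Cd36, for lipoprotein lipase and a fatty acid transporter, were not called, at 0.46 (SE 0.19) and 0.30 (SE 0.25). The number of higher genes was 7 without WT replicate 3 and 15 without HOM replicate 2, and 2 were lower without HOM replicate 2.

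Of 19 other tested adipokines and secreted proteins, 3 rose (Agt, Lcn2 and Nampt) and 4 fell (Fbn1, Tnf, Ccdc3 and C1qtnf2), with a median log2 fold change of -0.26. Lcn2, or lipocalin 2, was at 16.7, 7.40 and 26.9 CPM against 4.84, 5.07 and 5.44 CPM (1.72, SE 0.39, adjusted p = 0.014). Leaving out WT replicate 1 or 2 moved its adjusted p to 0.0547 or 0.0526. Fbn1, which encodes fibrillin 1, was lower (-0.74, SE 0.17, adjusted p = 0.013). That value became 0.0540 without HOM replicate 1 and 0.0538 without HOM replicate 3, and 2442 of its exon bases overlap Gm9913 on the opposite strand. Tnf, at 1.24 ± 0.0722 against 2.95 ± 0.354 CPM, was lower as well (-1.25, SE 0.30, adjusted p = 0.018), a value that became 0.0540 without HOM replicate 1, 0.0579 without HOM replicate 3 and 0.0858 without WT replicate 1. The resistin relatives differed from Retn: Retnlb had no reads in any library, Retnla had 3 reads in HOM and 23 in WT, and Retnlg was at 4.35 ± 3.19 against 3.34 ± 1.30 CPM without a call. No gene of the list was called higher without WT replicate 1 or WT replicate 2, and 8 were lower without HOM replicate 2, 2 without HOM replicate 3 or WT replicate 2 and 1 without HOM replicate 1 or WT replicate 1.

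Of 12 tested receptors and binding partners of adipokines, 3 rose (Insr, Lrp1 and Cap1) and 4 fell (Stra6, Aplnr, Lepr and Cdh13). Insr, the insulin receptor, was at 189 ± 32.7 against 84.4 ± 13.9 CPM (1.16, SE 0.16, adjusted p = 0.0017). Lrp1, a lipoprotein receptor, was at 464 ± 35.0 against 274 ± 25.6 CPM (0.76, SE 0.13, adjusted p = 0.0040), and Stra6, a receptor for retinol binding protein, at 1.92 ± 0.392 against 8.87 ± 1.49 CPM (-2.21, SE 0.26, adjusted p = 0.00091). The adiponectin receptors Adipor1 and Adipor2 were not called, at 0.29 (SE 0.11) and 0.52 (SE 0.18), and Lepr, the leptin receptor, was at 26.1, 48.6 and 27.5 CPM in HOM and 77.1, 43.1 and 81.9 CPM in WT, with overlapping groups. The number of lower genes was 2 without HOM replicate 1, HOM replicate 3, WT replicate 1 or WT replicate 3.

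Around factor D, the product of Cfd, the other parts of the alternative complement pathway had few counted reads, no call, or calls in either direction. Its substrate Cfb had 2 reads in HOM and 3 in WT. Of the 2825 exon bases of Cfb, 2246 overlap Gm20547 on the same strand, so its low count is uncertain. C3, the central component that the pathway cleaves, was at 25.2, 24.5 and 50.8 CPM against 60.9, 20.1 and 130 CPM without a call. Of 5 tested genes Cd46 rose (1.02, SE 0.24, adjusted p = 0.017, and 0.0625 without HOM replicate 1) and Cd55, which speeds the decay of the convertase, fell (-1.45, SE 0.30, adjusted p = 0.0093). Both overlap genes on the opposite strand. 2 genes were lower without HOM replicate 2 or WT replicate 2.

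In insulin-responsive glucose transport, the process in which Trarg1 acts, 2 of 16 genes were higher. They were Aspscr1, a tether of GLUT4 vesicles (0.81, SE 0.16, adjusted p = 0.0070), and Myo1c, a motor protein (0.50, SE 0.12, adjusted p = 0.017), of which 1 was called without HOM replicate 3, WT replicate 1 or WT replicate 3. The adjusted p of Myo1c was then 0.0669, 0.0546 and 0.0561. Slc2a4, the gene for GLUT4 itself, was at 69.0 ± 5.07 against 58.8 ± 6.76 CPM and was not called. Of 9 tested carbonic anhydrases other than Car3, Car12, a membrane enzyme, was lower (-1.90, SE 0.41, adjusted p = 0.011), and 2 were lower without HOM replicate 2 or HOM replicate 3.

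Markers of the cell types that the sorted cells could hold were read beside these values. In bulk RNA, a change in the number of cells of a type and a change in RNA per cell cannot be told apart. Of 10 tested mature adipocyte markers 7 rose, and all 7 were highest in HOM replicate 3. Cidec, Fabp4, Lipe, Pnpla2 and Pck1 among them were already counted with the lipid genes above, so these are the same calls. Plin1, Aqp7, Gpd1 and Slc2a4, which also stood in lists above, had no call. The whole list summed to 719 to 1368 CPM in HOM and 359 to 482 CPM in WT. The most abundant were Fabp4, a fatty acid binding protein also found in capillary endothelium, at 353, 405 and 613 against 292, 180 and 241 CPM (0.94, SE 0.23, adjusted p = 0.017), and Pnpla2. The call of Fabp4 was lost without HOM replicate 3 (adjusted p = 0.0577), WT replicate 2 (0.0627) or WT replicate 3 (0.0532). Acvr1c had 113, 27 and 367 reads in HOM and 6, 1 and 2 in WT, and Adrb3, the adrenergic receptor of fat cells, had 70, 6 and 170 against 2, 6 and 2. Both were lowest in HOM replicate 2 among the HOM libraries, as were Hp and the others of the 10 genes with reads in HOM, except Car3. Acvr1c and Adrb3 were chosen after their values were seen. Aqp7, the glycerol channel of fat cells, was lower without a call, at 0.558, 3.91 and 3.00 against 10.4, 3.33 and 5.57 CPM.

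Brown adipocyte markers summed to 40.0 to 59.9 CPM in HOM and 61.8 to 66.7 CPM in WT. 2 of 6 tested were lower, Cox7a1 and Ppargc1a (-0.75, SE 0.19, adjusted p = 0.019), with neither called without HOM replicate 1 or HOM replicate 3 and 1 called without any 1 WT replicate. Prdm16, the other abundant marker, was at -0.24 (SE 0.15), and Ucp1, the defining uncoupling protein, had 5 reads in HOM and 6 in WT. Markers of fibro-adipogenic progenitors and preadipocytes summed to 3086 to 3895 CPM in HOM and 5563 to 5870 CPM in WT, with 6 of 14 lower and 1, Pdgfra, higher. No marker of that list was called higher without HOM replicate 1, WT replicate 1 or WT replicate 2, and 2 were without HOM replicate 2. Gsn was at 1723 ± 120 against 1405 ± 64.6 CPM and Col3a1 at 478 ± 368 against 2639 ± 235 CPM. Col3a1 made up most of the gap between the sums, and without it the sums of HOM and WT libraries overlapped.

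Satellite cell markers summed to 1302 to 2056 CPM in HOM, highest in replicate 2, and 2433 to 2576 CPM in WT, with 7 of 10 lower. The number lower was 9 without HOM replicate 2, 4 without WT replicate 2 or WT replicate 3, 3 without HOM replicate 3 and 2 without HOM replicate 1 or WT replicate 1. Pax7, the defining factor of satellite cells, was present in every library, at 23.0, 52.2 and 19.4 CPM in HOM and 86.6, 66.1 and 74.7 CPM in WT. Their most abundant members were Sdc4, at 648 ± 63.5 against 750 ± 81.6 CPM, and Itga7, at 299 ± 48.9 against 446 ± 44.5 CPM. Pericyte and smooth muscle markers were far more abundant in both genotypes, at 13215 to 13936 and 11960 to 16851 CPM, led by Acta2 and Myh11. Of 10 tested, 3 were higher, namely Pdgfrb (1.02, SE 0.17), Kcnj8 (1.38, SE 0.28) and Abcc9 (1.58, SE 0.29), with adjusted p-values of 0.0036, 0.0081 and 0.0056. At least 3 were higher under each alternative run. Myh11 was lower (-0.58, SE 0.19, adjusted p = 0.049), a value that moved to between 0.0599 and 0.173 without HOM replicate 1, HOM replicate 3 or any 1 WT replicate. Muscle fibre markers summed to 49.2 to 73.7 CPM in HOM and 91.9 to 139 CPM in WT, led by Acta1 and Actn3, with 4 of 12 lower, 2 without HOM replicate 1 and 1 without WT replicate 1.

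Endothelial markers summed to 426 to 752 CPM in HOM and 511 to 794 CPM in WT, with Pecam1 and Cdh5 most abundant. With edgeR 0 of 10 were called, 1 (Esam, higher in HOM) had an unadjusted p under 0.05, and DESeq2 called 0. Without HOM replicate 2, 5 were lower, without both libraries high in Gm42418 8 were, and with no filter on low counts 3 were. Neutrophil and myeloid markers summed to 35.1, 93.8 and 193 CPM in HOM and 125, 113 and 174 CPM in WT, with S100a9 and S100a8 most abundant. With edgeR 0 of 9 were called and 0 had an unadjusted p under 0.05, DESeq2 called 0, and 2 were lower without HOM replicate 3 or with no filter on low counts. In HOM replicates 1, 2 and 3, where this sum was 35.1, 93.8 and 193 CPM, Hp stood at 108, 15.7 and 288 CPM. Of the hepatocyte markers Apoc3, an apolipoprotein, had 69, 15 and 152 reads in HOM and 0 in each WT library, at least 74.1-fold higher when the WT group is set to 3 reads, while Alb, the defining albumin gene, had 0, 0 and 10 reads in HOM and 0 in WT, Apoa1 had 0 to 7 reads per library and Serpina1a had none. The part of any of these cell types in the values of the 10 genes was not tested.

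**Figure D4:**
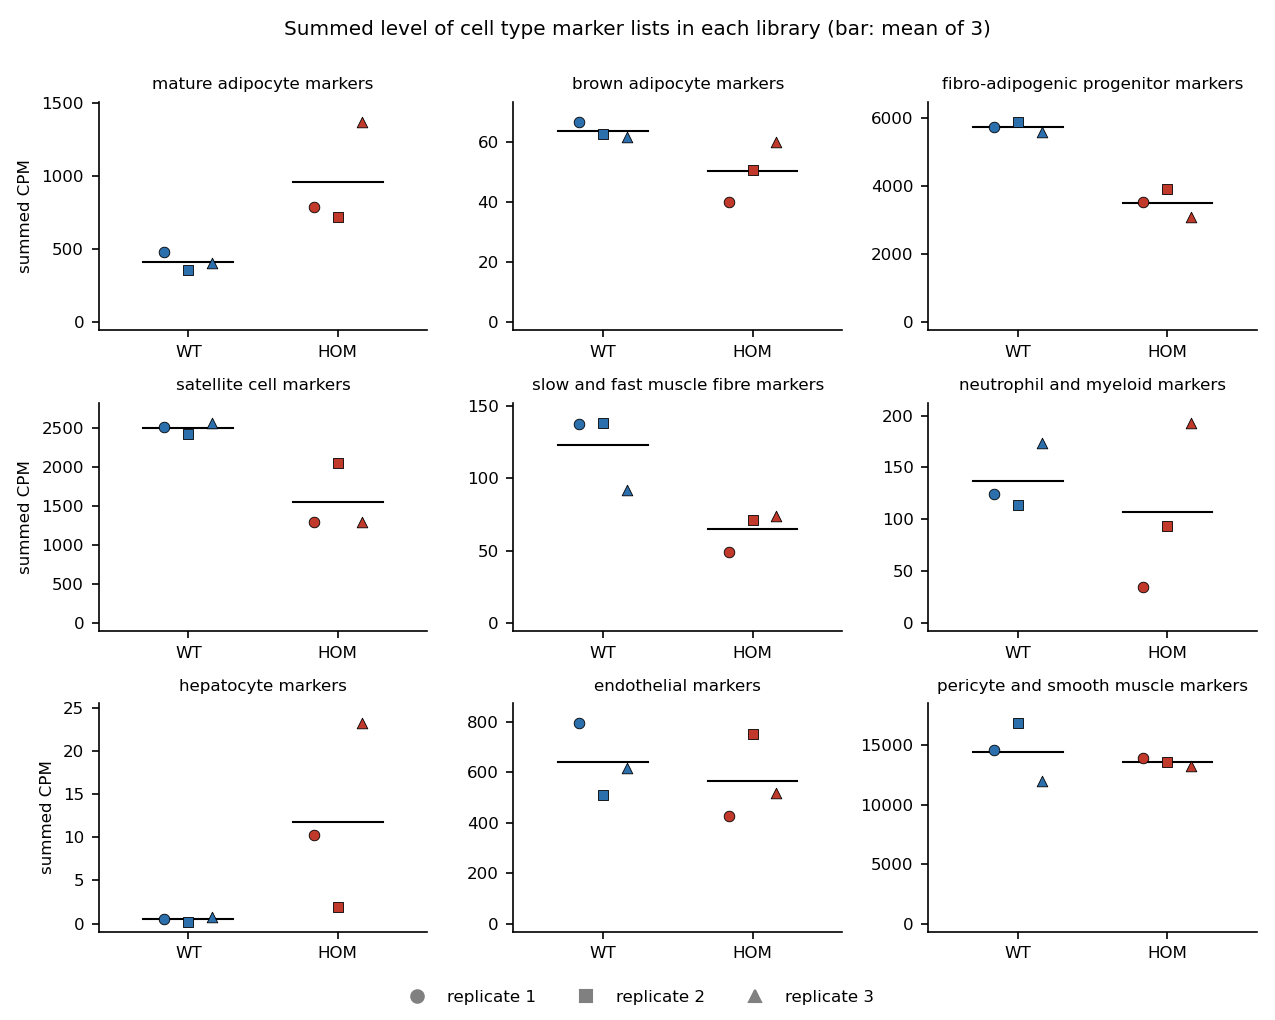
Summed CPM of 9 cell type marker lists in the 3 WT (blue) and 3 HOM (red) libraries, with the mean as a bar and a linear axis for each list. Mature adipocyte markers are highest in HOM replicate 3, at 1368 CPM. The neutrophil and myeloid sum is lowest in HOM replicate 1, at 35.1 CPM, and highest in HOM replicate 3, at 193 CPM.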

How the data were processed

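Total RNA of 6 libraries of sorted satellite cells was sequenced, and the authors deposited raw read counts per gene and library. Per the submitters' processing notes the tools were Trimmomatic 0.32, STAR 2.5.2b and HTSeq 0.6.1 with build mm10, while the labels do not state their settings, the strand or the annotation release. Summary lines that name no gene held 45 to 49.8% of each file's reads and were left out. Of 39059 Ensembl identifiers 38861 were matched to GENCODE M21 (GRCm38) for names and exon lengths, and 253 of 254 listed symbols were found.

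Groups came from the genotype labels. Genes passing filterByExpr (minimum count 10, total 15) were tested with edgeR 4.0.16 in R 4.3.3, by the quasi-likelihood test on TMM-scaled totals with Benjamini-Hochberg adjustment over all genes and a threshold of 0.05. Each SE was derived from that test, as the absolute log2 fold change divided by the square root of its F statistic. The procedure was tested on simulated data. Alternatives were DESeq2 1.42.0, other scalings and filters, a replicate block, a covariate for Y-linked reads, and leaving out libraries. Intervals are exact (scipy 1.17.1) and, without molecular identifiers, cover counting error only. Where WT had 0 reads, the floor was 3 reads over the group. Replicates differed by 8.35 to 22.5 chi-square units per gene, so none was a repeat deposit.

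The 10 genes and all lists were chosen with earlier results of these data known. The rule named up to 3 called genes with the smallest p per pathway list (the 2 most abundant where none was called), the 2 most abundant genes per marker list with those at 0, and the 3 nearest profiles, with a mean of at least 1 CPM, for the 3 of the 10 genes with most reads. Other genes of the lists were named after their values were seen.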

Additional observations from a re-analysis of the deposited data

How the results depend on the processing

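The 2980 genes called became 1933 with a term for libraries that carry Y-linked reads, and 1576 to 4002 when 1 library was left out. Over the same fits the pathway genes called higher (28) ranged from 17 to 33 and those called lower (14) from 8 to 24. The latter were 25 with no filter on low counts, where more genes were tested, and 23 without the libraries high in Gm42418. With a replicate block the counts were 2437, 27 and 16, and the calls of Ddit3 (adjusted p = 0.0653) and Myh11 (0.0532) were lost. No label pairs same-numbered libraries, and they correlated at -0.00495, 0.0367 and -0.0912 in their deviations from group means. The numbers were not taken as pairs, although HOM replicate 2 and WT replicate 2 shared a high level of Gm42418. When 1 library was left out, genes without a call changed sign: S100a9 ranged from -1.22 (without HOM replicate 3) to 0.14 (without HOM replicate 1) on the log2 scale, S100a8 from -1.51 (without HOM replicate 3) to 0.15 (without HOM replicate 1), with 0.03 without HOM replicate 2, and Pecam1 from -0.30 (without HOM replicate 2) to 0.19 (without HOM or WT replicate 1), with 0.0055 without HOM replicate 3. The cause was not tested. With 3 libraries a group and at most 4 WT reads for Cfd, Adipoq, Retn and Adig in any library, the size of their difference is known only within wide intervals.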
